A study of Homo sapiens with 8 samples.

Results

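Peaks of single-stranded DNA at places where the annotated ends of 2 or more protein-coding genes lie within 1000 bp of each other were followed in HEK293T cells, with and without vitamin C. These peaks were found by merging the peaks of both control libraries on chromosomes 1 to 22 and X, keeping merged regions that a peak of each control overlapped, and taking those that touched the span between such ends. This gave 497 of 15177 control regions (3.27%), at 968 genes. KAS-seq labels unpaired guanines in living cells with N3-kethoxal, so that opened DNA such as a transcription bubble is enriched and sequenced as a peak. HEK293T is an established human embryonic kidney line that carries the SV40 large T antigen. The vitamin C group had 2 labelled libraries from cells given 0.5 mM vitamin C for 10 min and then 5 mM N3-kethoxal for 10 min, and the control group had 2 labelled libraries from cells given the same labelling without vitamin C. The 4 input libraries of the series were not analysed here. The labels do not say whether replicates came from separate cultures, so every p-value reflects library spread alone, and that spread may be technical.

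A pair of neighbouring genes can meet in several ways. In a divergent pair the starts face away from each other and the short sequence between them, often a CpG island, serves as a bidirectional promoter. In a convergent pair the ends meet, and polymerases that have passed the polyadenylation site of one gene run toward the other before they are released. In a tandem pair the end of the upstream gene lies beside the start of the downstream gene. KAS-seq peaks are known at all these places, because paused polymerase at starts and polymerase past the polyadenylation site both hold DNA open.

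The vitamin C lists held 9816 and 9896 peaks on these chromosomes and the control lists 30351 and 24111. The labelled depth, solved from the authors' fold and p of each peak, was 1.225 and 0.871 fragments per position with vitamin C, against 0.817 and 0.849 in the controls. The difference in list length bears on every count below. Lists cut to equal length were run for the main results only, and those values are given where they differ. Other counts, such as those by gene list, known pair, motif, annotated pair or distance between ends, were not rerun. Of 8 genes known to be expressed in HEK293T cells, 2 and 2 had a peak at the gene with vitamin C and 3 and 3 in the controls, while PODXL, NEFM, NEFL, KRT8 and KRT18 had none. Of 10 genes of other tissues, 1 and 0 had a peak with vitamin C and 0 and 0 in the controls.

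The spans between divergent starts are short enough to print whole, and 66 of them of 20 to 250 bp lay at these regions and were covered by the RefSeq promoter sequences (GRCh38.p14, which has the same coordinates as hg38). The 6 shown here, on the plus strand from 5′ to 3′, are the 3 strongest control regions with a peak in each vitamin C library and the 3 strongest with a peak in neither, leaving out regions over small RNA genes. Capitals mark every CCAAT (or ATTGG on the other strand), GGGCGG (or CCGCCC) and TATAAA (or TTTATA). The first 3 had a peak in both vitamin C libraries.
SEC31A/THAP9, chr4:82900570-82900734: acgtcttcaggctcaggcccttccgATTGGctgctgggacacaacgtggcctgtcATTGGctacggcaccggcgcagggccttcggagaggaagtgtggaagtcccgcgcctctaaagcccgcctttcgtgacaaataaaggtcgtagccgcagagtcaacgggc
H2AC17/H2BC17, chr6:27893186-27893424: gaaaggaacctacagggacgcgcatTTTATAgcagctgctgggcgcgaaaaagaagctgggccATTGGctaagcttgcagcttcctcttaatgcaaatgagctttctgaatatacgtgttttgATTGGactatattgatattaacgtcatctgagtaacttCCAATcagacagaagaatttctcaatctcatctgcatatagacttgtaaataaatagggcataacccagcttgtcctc
SERINC4/HYPK, chr15:43800221-43800420: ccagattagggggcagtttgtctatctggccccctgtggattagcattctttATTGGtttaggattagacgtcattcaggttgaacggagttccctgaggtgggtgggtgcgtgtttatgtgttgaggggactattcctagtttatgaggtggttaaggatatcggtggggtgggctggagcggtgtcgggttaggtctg
The next 3 had a peak in neither.
EFHB/RAB5A, chr3:19946984-19947096: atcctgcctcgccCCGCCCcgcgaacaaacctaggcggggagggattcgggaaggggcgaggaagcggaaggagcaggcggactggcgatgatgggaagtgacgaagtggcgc
TIGD4/ARFIP1, chr4:152779731-152779953: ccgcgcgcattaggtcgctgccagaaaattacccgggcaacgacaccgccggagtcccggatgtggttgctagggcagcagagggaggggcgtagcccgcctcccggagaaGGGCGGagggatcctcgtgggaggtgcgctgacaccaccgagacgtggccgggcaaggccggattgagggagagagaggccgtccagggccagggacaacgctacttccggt
PTRH2/VMP1, chr17:59707431-59707653: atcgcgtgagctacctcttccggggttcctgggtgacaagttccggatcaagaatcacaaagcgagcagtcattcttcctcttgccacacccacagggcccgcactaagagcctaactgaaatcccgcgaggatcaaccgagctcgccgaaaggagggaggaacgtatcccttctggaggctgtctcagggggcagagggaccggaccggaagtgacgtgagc

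SEC31A encodes a coat protein of COPII vesicles, H2AC17 and H2BC17 are histone genes, and HYPK encodes a partner of the ribosome-bound N-terminal acetyltransferase. RAB5A encodes a GTPase of early endosomes, ARFIP1 a binding partner of ARF GTPases, PTRH2 a peptidyl-tRNA hydrolase and VMP1 a membrane protein needed for autophagy. The strongest peak at SEC31A/THAP9 stood at percentiles 88.6 and 85.4 of the authors' fold within the vitamin C lists, against 97.6 and 97.9 within the control lists. At EFHB/RAB5A the control peaks stood at percentiles 87.9 and 86.5, and at TIGD4/ARFIP1 at 83.7 and 87.8, with no vitamin C peak at either. The control peaks of the 3 spans without a vitamin C peak were thus weaker within their lists than those at SEC31A/THAP9. At SEC31A/THAP9 the summits lay 384 to 386 bp outside the span in all 4 libraries, and at PTRH2/VMP1 966 and 925 bp outside it in the controls, so that the letters shown are the ground between the genes and not always the place of the highest signal.

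Among the 66 spans, a CCAAT box on either strand was found in 17 of the 33 where both vitamin C libraries had a peak, in 9 of the 20 where 1 had, and in 3 of the 13 where neither had. GGGCGG was found in 13 of 33, 11 of 20 and 8 of 13, and TATAAA in 5, 2 and 0. The medians of GC content over these groups were 58.5%, 60.3% and 59.3%, and the spans had a median of 11, 12 and 12 CpG dinucleotides. A match is a run of letters and not a shown binding site, and no test was made over spans. The groups were not matched for control strength. Histone pairs such as H2AC17/H2BC17 and H2BC11/H2AC11, which hold both CCAAT and TATAAA, are among the spans met in both. Counts without histone pairs were not made.

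The same letters were counted in the RefSeq promoter windows, which run from 250 bases before each gene's start to 50 after it. Genes at divergent regions carried CCAAT in 47.9% of 292 windows, against 39.6% of 2162 windows at all annotated divergent pairs and 36.4% of 15811 windows of all coding genes with a sequence. The ETS motif CCGGAAG was found in 36.3%, 26.6% and 14.1% of the same sets. GGGCGG was found in 63.4%, 70.1% and 58.3%. TATAAA was found in 4.45%, 4.26% and 9.75%. All motifs were searched on both strands. Both windows of a pair overlap the same span where it is short, so these windows are not independent. Windows at control regions over an end without a neighbour were not counted, so these shares are not shown to be particular to shared ends. Between genes of regions met with vitamin C in both libraries (142 windows) and in neither (72 windows), CCAAT stood at 51.4% and 41.7%, CCGGAAG at 33.1% and 34.7%, GGGCGG at 63.4% and 62.5%, and TATAAA at 4.93% and 1.39%.

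Counted over the annotation, without any choice by peaks, fewer shared ends were touched with vitamin C. The annotation held 3213 separate places where coding genes share an end, with a median length of 264 bp, and 264 and 246 of them were touched by a peak with vitamin C, against 608 and 491 in the controls. These are 8.22% and 7.66% against 18.9% and 15.3%, and the groups did not overlap. The means were 255 ± 12.7 with vitamin C and 549.5 ± 82.7 in the controls (SD, n = 2 each), a log2 ratio of -1.11 with an exact two-sided permutation p of 0.333, the smallest that 2 libraries against 2 allow. The fall was not particular to shared ends. The log2 ratio was -1.18 for the percentage touched of ends with no other coding gene's end within 1000 bp. It was -1.47 for the number of peaks in the lists. With each list cut to its 9816 peaks of lowest q, the ratio for shared-end places became -0.42. The ratio for the other ends was not run on those lists.

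Gene ends with a neighbour nearby were touched more often than gene ends that stood alone, in every library. Of 6682 shared ends, 5.36% and 4.88% lay under a peak with vitamin C and 12.3% and 9.94% in the controls. Of 33258 ends with no other coding gene's end within 1000 bp, 1.80% and 1.62% lay under a peak with vitamin C and 4.21% and 3.56% in the controls. The log2 ratio of the first share over the second was 1.57 and 1.59 with vitamin C and 1.55 and 1.48 in the controls. Its difference between conditions was 0.07 (exact two-sided permutation p = 0.333), so the excess at shared ends was nearly as large in both. Ends were counted per gene, so 1 peak over the end shared by the protocadherin gamma genes counts many times. That place was met in both vitamin C libraries and in 1 control, and the difference without it was not computed. Peaks that touched the span between shared ends made up 2.77% and 2.59% of the vitamin C lists and 2.08% and 2.10% of the control lists, a difference of 0.59 percentage points (exact two-sided permutation p = 0.333). In lists of equal length this last difference was -0.86 points, so its direction rests on the lengths of the lists.

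**Figure D1:**
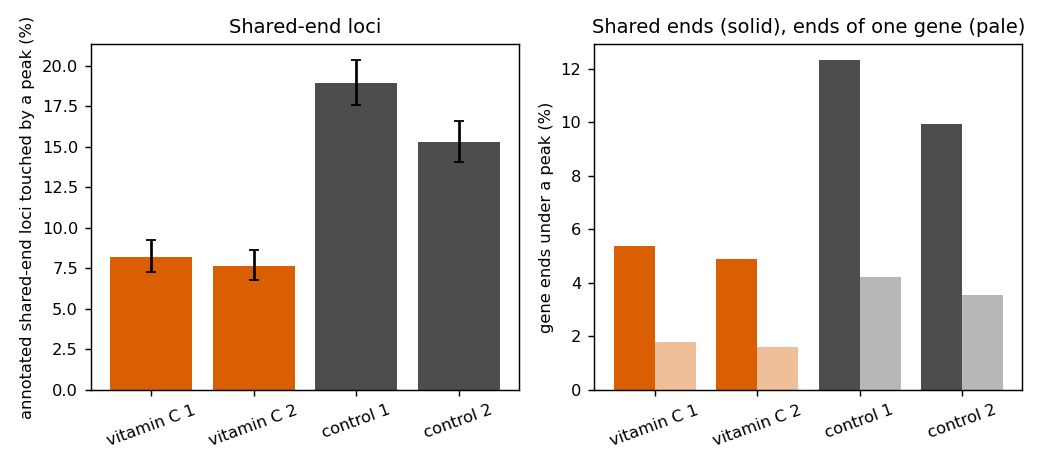
Left, the percentage of the 3213 annotated shared-end places touched by a peak in each labelled library, with bars for the library and whiskers for the 95% Clopper-Pearson interval. Right, the percentage of gene ends under a peak, for ends with another coding gene's end within 1000 bp (solid) and ends without (pale). The vitamin C libraries stand at 8.22% and 7.66% of places and the controls at 18.9% and 15.3%, and solid bars are above pale ones in all 4 libraries.

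Of the 497 control regions at shared ends, 263 were met by a peak in both vitamin C libraries (52.9%, 95% Clopper-Pearson interval 48.4 to 57.4), 114 in 1 (22.9%) and 120 in neither (24.1%, 20.4 to 28.2). Over all 15177 control regions these shares were 33.1%, 24.9% and 42.0%. The intervals cover counting error only. Vitamin C replicate 1 met 321 of the regions and vitamin C replicate 2 met 319. Without control replicate 2, which leaves 631 regions, 245 were met in neither vitamin C library. In lists of equal length 79.4% of 296 regions were met in both and 22 in neither. The share over all control regions was not computed for those lists, so 79.4% cannot be set against 33.1%.

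The regions at shared ends were stronger and wider in the controls than most. Strength was scored per control as the rank of the best peak by fold, expressed as a percentile of that control's list, and averaged over the controls. Its median was 79.3 for regions at shared ends, 82.0 for 1206 control regions over an end of a coding gene with no neighbouring end, and 58.8 over all control regions. Their median widths were 817, 1026 and 608 bp. The regions over an end without a neighbour are the closest comparison, and 727 of 1206 of them were met in both vitamin C libraries (60.3%, 57.5 to 63.1) and 242 in neither (20.1%).

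Retention followed control strength. In the strongest of 10 equal bins of all control regions, 121 of 124 regions at shared ends were met in both vitamin C libraries (97.6%, 93.1 to 99.5), against 97.1% of the regions at ends without a neighbour. In the next bin it was 63 of 89 (70.8%, 60.2 to 79.9), against 82.6% (76.3 to 87.8). In the 2 weakest bins it was 0 of 13 (upper limit 24.7%) and 0 of 18 (18.5%), against 4 of 34 and 4 of 43. Regions at shared ends minus regions at ends without a neighbour gave -7.36 percentage points of regions met in both vitamin C libraries, and -4.57 points averaged over the bins. The difference within bins was -5.50 points in vitamin C replicate 1 and -1.57 points in vitamin C replicate 2. It was -2.24 points without control replicate 1 and -1.06 points in lists of equal length, and 1.98 points where a vitamin C peak had to cover 50% of the region, so no difference between these sets is claimed.

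**Figure D2:**
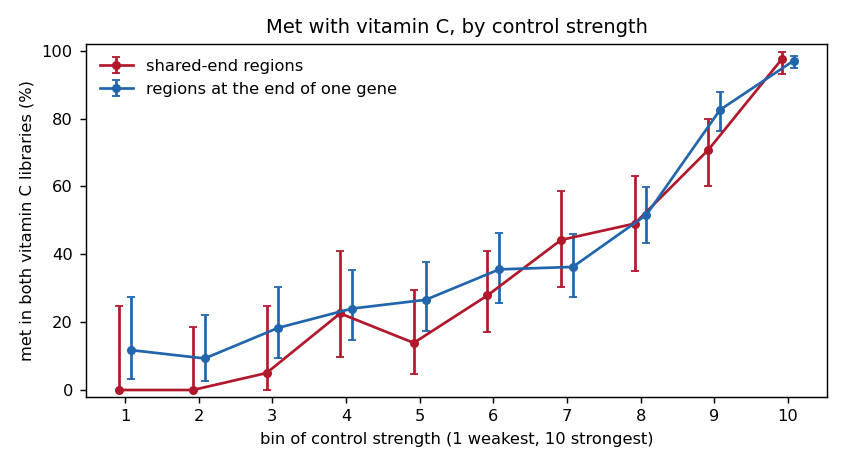
Percentage of control regions met by a peak in both vitamin C libraries, by bin of control strength (1 the weakest, 10 the strongest, bins equal over all 15177 control regions), for regions at shared ends and regions at the end of 1 coding gene. Points are shares and whiskers 95% Clopper-Pearson intervals. Both lines run from under 12% in the weakest bin to above 97% in the strongest.

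Several of the strongest regions at shared ends held ribosomal protein genes. First by control strength was ANG/RNASE4 (chr14:20682579-20684380), a pair of ribonuclease genes that share a start, whose region also covers the tRNA genes TRY-GTA5-5 and TRP-TGG3-2. Its strongest peak stood at percentiles 96.1 and 98.5 with vitamin C and 99.91 and 99.98 in the controls. Next was NOP56/IDH3B (chr20:2653161-2661191), where the gene of a core snoRNP protein meets the gene of a mitochondrial isocitrate dehydrogenase subunit, at percentiles 99.7 and 99.8 with vitamin C and 99.9 and 99.9 in the controls. FAM83E/RPL18 (chr19:48613557-48615555), POLG2/MILR1/DDX5 (chr17:64496160-64499684) and the FMC1/LUC7L2 locus (chr7:139340143-139342460) followed. RPL18 encodes a protein of the large ribosomal subunit, DDX5 an RNA helicase and LUC7L2 a splicing factor of the U1 particle.

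Ranks 6 to 15 were FCGR2A/HSPA6, TLCD1/RPL23A, RPL4/ZWILCH, RPL41/ZC3H10, NDUFB10/RPS2, RPL32/CAND2, NECAB3/E2F1, ILF2/SNAPIN, EIF4A1/CD68 and SCAMP3/CLK2. HSPA6 is an inducible HSP70 gene, E2F1 encodes a transcription factor of S phase entry and EIF4A1 the helicase of translation initiation. All 15 were met in both vitamin C libraries. Of these, NECAB3/E2F1 (chr20:33674757-33675727) had the widest gap between its vitamin C libraries, at percentiles 96.3 and 70.5 with vitamin C against 99.4 and 99.3 in the controls. Over all 263 regions met in all 4 libraries the median percentile was 80.6 and 81.2 with vitamin C and 93.9 and 92.1 in the controls, a difference of -12.1 (exact two-sided permutation p = 0.333) that was 0.38 in lists of equal length. Percentiles from lists of such different length show no change by themselves, and are given to place each peak within its own list. They describe the strongest peak of a region, whose summit lay over 1000 bp outside the span at 24 and 29 of the 263 regions with vitamin C and at 25 and 30 in the controls.

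Small RNA genes lay under 13 of the 497 regions (2.62%), a share close to the 2.53% over all control regions and the 3.90% at ends without a neighbour. All 13 had a peak in each vitamin C library, as did 94.9% of all control regions in the strongest bin, where all 13 lie. Besides the tRNA genes at ANG/RNASE4, TRR-CCT4-1 lay under the FMC1/LUC7L2 region and TRG-GCC2-1 under FCGR2A/HSPA6 (chr1:161523486-161524289). The other 10 covered snoRNA genes, which sit in introns of their hosts, among them SNORD110, SNORA51, SNORD86, SNORD56 and SNORD57 at NOP56/IDH3B and SNORA10 and SNORA64 at NDUFB10/RPS2. Their median control strength was 99.3. Without these 13 regions, 250 of 484 were met in both vitamin C libraries (51.7%) and 120 in neither. Signal at such a region cannot be divided between the coding genes and the small RNA genes.

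Below these, the strongest region with no vitamin C peak was NAA50/ATP6V1A (chr3:113746346-113746693), rank 141 by control strength, at percentiles 90.6 and 91.4 in the controls. NAA50 encodes an N-terminal acetyltransferase and ATP6V1A the catalytic subunit of the vacuolar proton pump. The next were EFHB/RAB5A, NUDCD2/HMMR, APOM/BAG6, DESI1/XRCC6, KMT2A/TTC36, TIGD4/ARFIP1, ARPC5L/GOLGA1, PFN1/ENO3 and MDP1/NEDD8. HMMR encodes a hyaluronan receptor that also binds the mitotic spindle, BAG6 a chaperone for membrane proteins, XRCC6 the Ku70 subunit of DNA end joining, PFN1 the actin-binding protein profilin and NEDD8 a ubiquitin-like modifier. Their control peaks were between 215 bp (PFN1/ENO3, control replicate 1) and 1183 bp (NUDCD2/HMMR, control replicate 1) wide. Each of the 140 regions stronger than NAA50/ATP6V1A was met in at least 1 vitamin C library.

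By strand, which the sequence table gave for 79.2% of coding genes, 147 regions lay at divergent starts, 97 at convergent ends and 78 at a tandem end and start. A further 9 lay at a start beside an antisense end, 6 at a shared start, 6 at a shared end and 33 at several arrangements, and for 121 the strand of a gene was not known here. Peaks in both vitamin C libraries met 71 of the divergent regions (48.3%, 40.0 to 56.7), 52 of the convergent ones (53.6%, 43.2 to 63.8) and 46 of the tandem ones (59.0%, 47.3 to 70.0), while 36, 28 and 15 were met in neither. The median control strengths were 73.9, 75.4 and 84.6 in the same order. The intervals overlap, and the difference of -5.31 points between divergent and convergent regions turned to 2.88 points without control replicate 1 and to 0.03 points without vitamin C replicate 1, so these arrangements are given without an order.

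**Figure D3:**
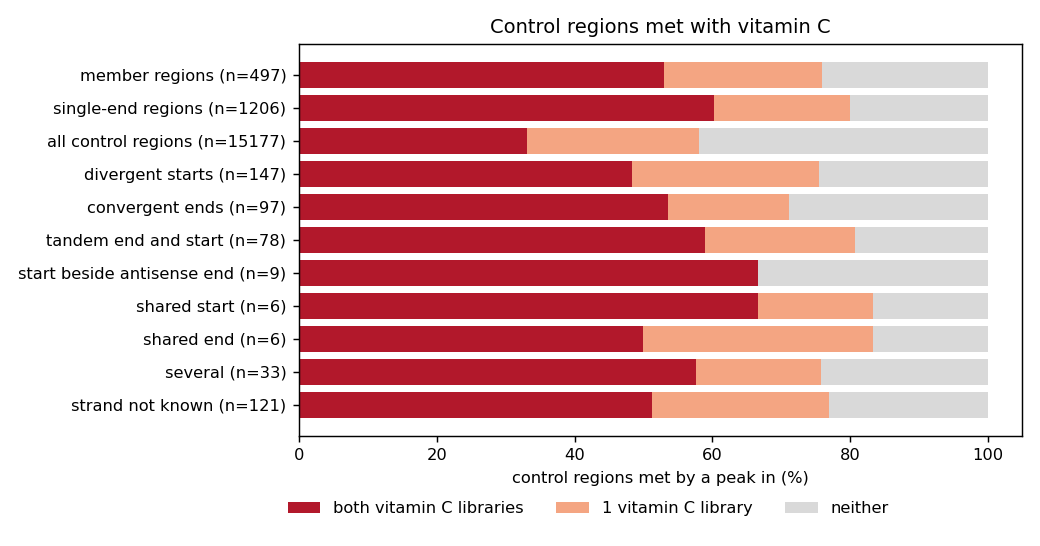
Percentage of control regions met by a peak in both, in 1 or in neither of the vitamin C libraries, as stacked bars, for the 497 regions at shared ends, the 1206 regions at an end without a neighbour, all 15177 control regions, and the shared-end regions by arrangement of the genes. The bars for divergent, convergent and tandem regions reach 48.3%, 53.6% and 59.0% for both libraries, and the 4 smallest classes hold 33 regions or fewer.

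The same order of classes can be set beside the annotation. Of 1097 annotated divergent pairs, 84 and 79 were touched with vitamin C and 199 and 168 in the controls. Of 638 convergent pairs, 46 and 45 were touched with vitamin C and 130 and 105 in the controls. Of 475 tandem pairs, 55 and 58 were touched with vitamin C and 118 and 95 in the controls. In each of these 3 arrangements the vitamin C libraries were below both controls. Shared ends did not follow this, since of 395 such pairs 196 and 195 were touched with vitamin C and 202 and 12 in the controls. Many pairs of a cluster can share the same end, as in the protocadherin gamma cluster, so that 1 peak there counts for all of them.

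RPL4/ZWILCH (chr15:66503871-66505138) was the strongest divergent region. RPL4 encodes a ribosomal protein and ZWILCH a kinetochore protein, and the peak stood at percentiles 99.6 and 95.4 with vitamin C and 99.8 and 99.4 in the controls. RPL12/LRSAM1 (chr9:127443574-127451718) followed at 95.8 and 96.6 with vitamin C and 98.8 and 98.6 in the controls, and CRYZL1/ITSN1 (chr21:33641906-33642614) at 93.3 and 89.9 with vitamin C and 98.6 and 97.4 in the controls. ITSN1 encodes an endocytic scaffold. All 3 had peaks in every library. At RPL12/LRSAM1 the strongest summit lay 5370 and 5494 bp outside the span with vitamin C and 5906 and 5862 bp outside it in the controls, and the region covers SNORA65, so these percentiles do not describe signal between the starts.

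Among convergent ends, RPL32/CAND2 (chr3:12829808-12835408) stood at percentiles 96.0 and 97.7 with vitamin C and 99.4 and 99.6 in the controls, and ILF2/SNAPIN (chr1:153660451-153662817) at 96.9 and 95.2 with vitamin C and 99.1 and 99.5 in the controls. The summit at RPL32/CAND2 lay 1363 to 1366 bp outside the span in all 4 libraries. ILF2 encodes a double-stranded RNA-binding factor and SNAPIN a protein of vesicle fusion. Tandem regions were led by FAM83E/RPL18, at 99.5 and 99.2 with vitamin C and 99.95 and 99.8 in the controls. The region of RPL41, the gene of the shortest ribosomal protein, and ZC3H10 (chr12:56115716-56119771) stood at 97.3 and 99.3 with vitamin C and 99.6 and 99.6 in the controls.

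Among the smaller classes, the median control strength was 93.1 at shared starts, 70.8 at shared ends and 67.5 at starts beside an antisense end. The vitamin C libraries were close to each other at some of their strongest regions and far apart at others. At HDDC3/UNC45A (chr15:90929728-90930792), a start beside an antisense end, the percentiles were 51.9 and 59.0 with vitamin C and 97.0 and 87.3 in the controls. GNG3/BSCL2 (chr11:62708757-62709732), of the same arrangement, stood at 26.4 and 64.5 with vitamin C and 97.0 and 94.2 in the controls. ABHD14A-ACY1/ACY1 (chr3:51988501-51989433), a readthrough gene and the aminoacylase gene whose end it shares, stood at 92.2 and 9.57 with vitamin C and 97.7 and 96.1 in the controls. At ARPIN-AP3S2/AP3S2 (chr15:89829519-89830725) the percentiles were 4.17 and 76.2 with vitamin C and 93.4 and 55.5 in the controls. At the last 3 regions the vitamin C libraries lie far apart from each other.

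Cytosolic ribosomal protein genes lay at 31 regions, of which 26 were met in both of the vitamin C libraries, 5 in 1 and 0 in neither, with a median control strength of 96.3. TLCD1/RPL23A (chr17:28719386-28725934) stood at percentiles 99.7 and 99.6 with vitamin C and 99.8 and 99.7 in the controls. That region covers 4 snoRNA genes. Its strongest summits lay 683 and 700 bp outside the span with vitamin C and 697 and 708 bp outside it in the controls. These percentiles thus do not describe signal between the ends. Replication-dependent histone genes, which are clustered and expressed in S phase, lay at 16 regions, 13 of them met in both, 2 in 1 and 1 in neither, with a median strength of 94.0. H2BC12/H2AC12 (chr6:27145057-27148236) stood at 87.7 and 92.3 with vitamin C and 98.6 and 98.1 in the controls, and H2AC20/H2AC21/H2BC21 (chr1:149885050-149887464) at 97.0 and 95.01 with vitamin C and 98.9 and 97.6 in the controls. The histone region met in neither, H2AC7/H3C4/H2BC7 (chr6:26199206-26199651), stood at 68.3 and 47.8 in the controls. Both lists are among the strongest regions, where most regions of any kind were met.

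Splicing genes lay at 13 regions, with 9 met in both of the vitamin C libraries, 3 in 1 and 1 in neither, and a median strength of 86.1. CBX5/HNRNPA1 (chr12:54278853-54291387), where a heterochromatin protein gene meets an RNA-binding protein gene, stood at 97.5 and 98.2 with vitamin C and 98.6 and 97.9 in the controls, with summits 5111 and 5118 bp outside the span with vitamin C and 5396 and 5118 bp outside it in the controls. HNRNPA2B1/CBX3 (chr7:26198208-26201228), a divergent pair of an RNA-binding protein gene and a heterochromatin protein gene, stood at 92.7 and 92.2 with vitamin C and 97.3 and 97.2 in the controls. Zinc finger genes lay at 10 regions, with 6 met in both, 1 in 1 and 3 in neither. Over all 497 regions, 52.9% were met in both, 22.9% in 1 and 24.1% in neither.

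Genes of mitochondria were spread over strong and weak regions. Mitochondrial ribosomal protein genes lay at 19 regions, with 10 met in both of the vitamin C libraries, 5 in 1 and 4 in neither, and a median strength of 68.6. These counts stand near the shares over all 497 regions, 52.9% in both and 24.1% in neither. PPP1R10/MRPS18B (chr6:30614377-30617716) stood at 83.6 and 88.2 with vitamin C and 96.0 and 95.9 in the controls, with summits 1393 and 1447 bp outside the span with vitamin C and 1429 and 11 bp outside it in the controls. MIF4GD/MRPS7 (chr17:75266111-75266727) was met in neither, at 68.3 and 78.5 in the controls. Respiratory chain genes lay at 19 regions, with 12 met in both, 5 in 1 and 2 in neither. NDUFB10/RPS2 (chr16:1959817-1964424) stood at 99.6 and 98.8 with vitamin C and 99.9 and 99.2 in the controls. That region also holds the ribosomal protein gene RPS2 and covers 2 snoRNA genes. Its summits lay 861 and 541 bp outside the span with vitamin C and 585 and 488 bp outside it in the controls. Its percentiles thus cannot be assigned to NDUFB10. LRRC41/UQCRH (chr1:46303371-46304112), which holds the gene of the complex III hinge protein, was met in neither, at 87.9 and 29.1 in the controls. The controls themselves lie far apart at this last region.

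DNA repair and replication genes lay at 19 regions, with 10 met in both of the vitamin C libraries, 4 in 1 and 5 in neither, and a median strength of 81.9. These counts, too, stand near the 52.9% and 24.1% over all 497 regions. CDT1/APRT (chr16:88808225-88810538), which holds the gene of a replication licensing factor, stood at 95.8 and 92.6 with vitamin C and 98.6 and 98.2 in the controls. COPS6/MCM7 (chr7:100090757-100095482), where the gene of a COP9 signalosome subunit meets that of a replicative helicase subunit, stood at 87.0 and 95.8 with vitamin C and 98.4 and 99.0 in the controls. DESI1/XRCC6 (chr22:41620985-41621478) was met in neither, at 87.4 and 85.1 in the controls. Proteasome genes lay at 4 regions, 2 of them met in both and 1 in neither, and tRNA synthetase genes at 3, 1 of them met in both and 2 in neither. No gene list was tested, and the counts are not read as results about these genes.

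Of 18 divergent pairs known as examples of bidirectional promoters, 14 had ends within 1000 bp in the annotation, 9 of these were touched in no library, and 4 were at the regions followed here. The spans touched were 2 and 2 of the 14 with vitamin C (14.3% in each library) and 5 and 4 in the controls (35.7% and 28.6%), against 7.66% and 7.20% with vitamin C and 18.1% and 15.3% in the controls over all annotated divergent pairs. GART/SON (chr21:33542236-33543222), the genes of a purine synthesis enzyme and a splicing cofactor, stood at 92.9 and 79.9 with vitamin C and 97.2 and 94.8 in the controls. TK1/AFMID (chr17:78187230-78187600), with the gene of thymidine kinase, had a peak only in vitamin C replicate 1, at 66.5, against 96.0 and 67.9 in the controls. NPAT/ATM (chr11:108222926-108223818), with the genes of a histone gene coactivator and the DNA damage kinase, had none with vitamin C, against 62.4 and 32.5 in the controls. The pairs HSPD1/HSPE1, SURF1/SURF2 and HARS1/HARS2 were among those touched in no library.

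At the 263 regions met in all 4 libraries, the strongest peak was narrower with vitamin C. Its median width was 475 and 495 bp with vitamin C and 999 and 966 bp in the controls. The means were 485 ± 14.1 and 982.5 ± 23.3 bp (SD, n = 2 each), a difference of -497.5 bp with an exact two-sided permutation p of 0.333. The mean over the vitamin C libraries was below that over the controls at 258 of 263 regions (98.1%), against 94.1% over all 5028 control regions met in all 4 libraries. Both vitamin C peaks were narrower than both control peaks at 202 (76.8%), against 68.4% over all such regions. The median ratio, vitamin C over control, was 0.604 at shared ends, 0.562 at the 727 regions at ends without a neighbour and 0.649 over all, so narrower peaks were found at all these sets. Regions here were defined by control peaks. Defined instead from the vitamin C lists, a choice made after seeing the data, the medians were 517 and 537 bp with vitamin C and 964 and 950 bp in the controls (227 regions).

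Among the 3 largest arrangements, convergent ends had the widest control peaks. There the medians were 543 and 587 bp with vitamin C and 1630 and 1345 bp in the controls (52 regions, median ratio 0.449). At divergent starts they were 402 and 361 bp with vitamin C and 766 and 664 bp in the controls (71 regions, median ratio 0.716). At tandem ends and starts they were 527 and 538.5 bp with vitamin C and 814 and 936.5 bp in the controls (46 regions, median ratio 0.675). Each arrangement had vitamin C values below both control values.

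**Figure D4:**
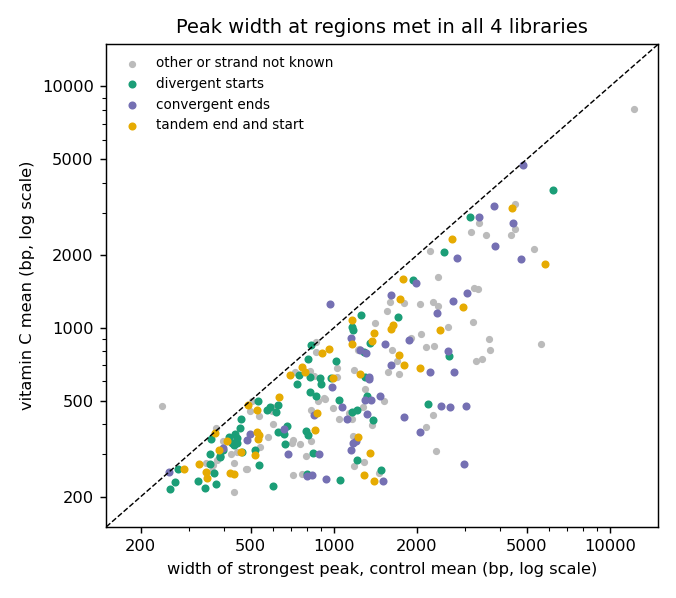
Mean width in bp of the strongest peak over the vitamin C libraries (vertical, log scale) against that over the controls (horizontal, log scale), at the 263 shared-end regions met in all 4 libraries, coloured by arrangement. Each point is a region and the dashed line marks equal width. All but 5 points lie below the line.

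Single regions show the span of this. At CDT1/APRT, a convergent region, the strongest peak was 656 and 651 bp wide with vitamin C and 2314 and 2147 bp in the controls. PPP1R10/MRPS18B, a divergent one, had 626 and 344 bp with vitamin C and 3062 and 1310 bp in the controls. RPL32/CAND2 kept broad peaks, 5451 and 3981 bp with vitamin C and 5601 and 4104 bp in the controls. At FCGR2A/HSPA6 the widths were 652 and 656 bp with vitamin C and 764 and 804 bp in the controls. S100PBP/YARS1 (chr1:32816629-32816879) went the other way, with 464 and 484 bp with vitamin C and 246 and 232 bp in the controls. YARS1 encodes the tyrosyl-tRNA synthetase of the cytosol.

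With the narrower peaks, fewer regions had both gene ends of the closest pair under a peak. Among the 263 regions, both ends lay under peaks at 77 and 71 with vitamin C and at 146 and 122 in the controls, and neither end did at 75 and 87 with vitamin C and at 12 and 25 in the controls. At the 52 convergent regions, both ends were covered at 16 and 15 with vitamin C and at 36 and 29 in the controls, and neither at 23 and 24 with vitamin C and at 4 and 8 in the controls. At the 71 divergent regions, both starts were covered at 13 and 12 with vitamin C and at 30 and 23 in the controls. At the 46 tandem regions, both were covered at 8 and 7 with vitamin C and at 16 and 14 in the controls. A control region was also more often divided: it held several peaks at 75 and 83 of the 263 with vitamin C and at 44 and 51 in the controls, and peaks covered a median of 59.5% and 58.4% of its length with vitamin C and 95.8% and 91.0% in the controls. Because the region is the union of the control peaks, control coverage is high by construction. The number of separate control peaks in a region is kept low in the same way. Division was counted at shared-end regions only, so no share over all control regions stands beside it. Regions were also chosen because they touched the span between the ends, while a vitamin C peak needed only to overlap the region. The counts of ends under control peaks are thus partly set by the rule. Ends under peaks were not counted at regions defined from the vitamin C lists.

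At tandem regions met in all 4 libraries, the outer edges of the vitamin C peaks lay, by the median, inside those of the control peaks on both sides. Regions defined as unions of control peaks favour this by construction, and the edges were not measured at regions defined from the vitamin C lists. The median distance between the edges was 83 bp on the upstream side and 71.5 bp on the downstream side, and the upstream distance was the larger at 22 of 46 regions. Regions that covered both ends of a pair in the controls kept a peak in each vitamin C library in 150 of 235 cases (63.8%), those that covered 1 end in 109 of 238 and those that covered none in 4 of 24. Their median strengths were 84.5, 75.8 and 64.5.

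The strongest summit lay within the span between the ends at 28.5% and 27.0% of the 263 regions with vitamin C and at 27.4% and 27.8% in the controls, a difference of 0.19 percentage points (exact two-sided permutation p = 1), which was -0.41 points without control replicate 1. The median distance between the summits of a region was 35 bp between the vitamin C libraries, 37 bp between the controls and 28 to 38 bp between a vitamin C and a control library. The summits lay within 100 bp of each other at 72.2% of regions between the vitamin C libraries and at 69.2% between the controls. That share was 71.1% and 74.1% between vitamin C replicate 1 and the controls and 64.6% and 66.5% between vitamin C replicate 2 and the controls.

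Summits lay outside the span in most regions of the divergent and convergent kind. At divergent starts the median summit lay 159 and 134 bp beyond the span with vitamin C and 139 and 144 bp beyond it in the controls, and 9 and 11 of 71 summits lay within the span with vitamin C, against 7 and 10 in the controls. At convergent ends it lay 502 and 445 bp beyond the span with vitamin C and 332.5 and 411 bp in the controls, and 10 and 10 of 52 lay within it with vitamin C, against 14 and 13 in the controls. At tandem regions it lay 81.5 and 70 bp beyond the span with vitamin C and 123 and 102.5 bp in the controls, with 20 and 19 of 46 within it with vitamin C and 19 and 18 in the controls. The vitamin C and control values are close to each other at divergent starts.

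**Figure D5:**
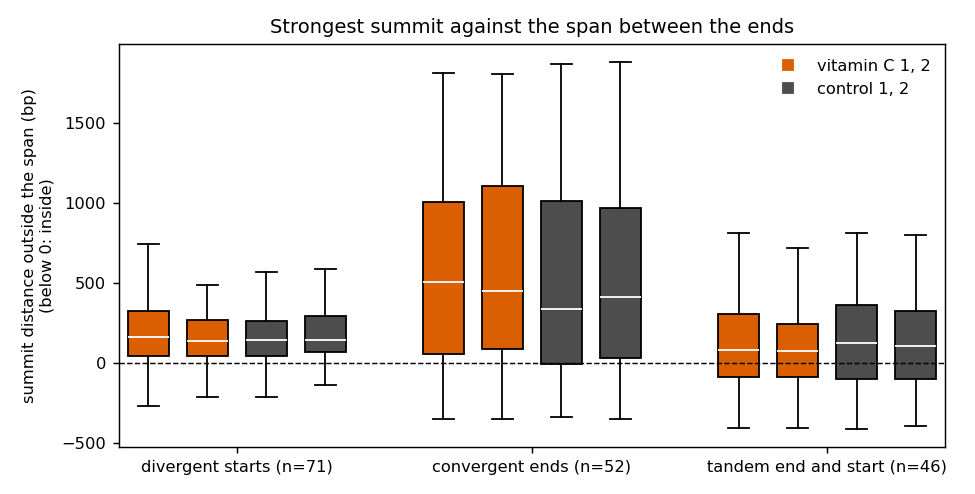
Distance in bp of the strongest summit from the edge of the span between the gene ends (vertical, values below 0 lie inside the span), at divergent, convergent and tandem regions met in all 4 libraries. Each box is 1 library, with the median as a white line, the quartiles as the box and whiskers to the farthest values within 1.5 times the box length. The boxes of the vitamin C libraries and of the controls overlap in every arrangement.

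Read in the other direction, 5834 regions were found in both vitamin C libraries and 232 of them touched the span between shared ends (3.98%). A peak of each control met 227 of these (97.8%, 95.04 to 99.3), against 94.4% over all vitamin C regions, 5 in 1 control and 0 in none. The 5 lay at ATP6V0B/B4GALT2, TPR/ODR4, MYL6/SMARCC2, SLC25A53/FAM199X and the protocadherin gamma cluster.

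The distance between the ends showed no steady relation to retention. Peaks in both vitamin C libraries met 50 of 98 regions with ends at most 100 bp apart, 85 of 149 with ends 101 to 300 bp apart and 128 of 250 with ends 301 to 1000 bp apart. Just inside the limit, at 901 to 1000 bp, 18 of 32 regions were met in both and 9 in neither, and just outside it, at 1001 to 1100 bp, 12 of 23 were met in both and 9 in neither.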

How the data were processed

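The peak lists of 4 labelled libraries were used as deposited. The submitters' processing notes name MACS2 2.2.7.1, Bowtie2 2.4.5, deepTools, cutadapt, Trim Galore and bcl2fastq 2.19, with build hg38. No settings are given there. The deposited lists give each peak's positions, the authors' fold (a ratio over background), −log10 p, −log10 q and a score. Fold served to rank peaks within a list, and with −log10 p to solve for depth. Gene ends came from a RefSeq table (GRCh38.p14) with 19970 coding genes, and strand and promoter sequences from a RefSeq promoter table. A region was met by an overlap of at least 1 bp. Exact permutation tests, two-sided, compared the groups. The members, the gene lists and the rule for named pairs (the strongest regions of all, per arrangement, per list and among regions met in neither vitamin C library) were chosen with earlier results of these data known. Some of what this rule selects is not reported here. The 6 printed spans were chosen after their values were seen. Replicate numbers were not found to pair the libraries. Alternatives were list length, −log10 q, fold, distance, coverage, bins, summits, small RNA and readthrough genes, leaving out each library and a replicate block. Software was scipy 1.17.1, pandas 2.3.3 and numpy 2.4.6 under Python 3.11.15.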

Additional observations from a re-analysis of the deposited data

How the results depend on the processing

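The lower number of shared-end places touched with vitamin C and the narrower peaks kept their direction under every alternative run (log2 ratios of -1.25 to -0.42, widths of -577.5 to -298 bp). These 2 results are not separate, since touching by overlap depends on peak width as well as list length. No run took out both, so the part of peak width in the ratio of -0.42 was not tested. Lists of equal length gave 296 regions, 79.4% met in both vitamin C libraries, 22 in neither, a share of list peaks of -0.86 points, a difference in median percentile of 0.38 instead of -12.1, regions at shared ends minus ends without a neighbour of -2.94 points and -1.06 within bins, and divergent minus convergent regions of -13.5 points. The last was -13.4 at −log10 q of at least 5, -10.2 at a fold of at least 4, -9.99 at 500 bp, 0.59 at 2000 bp, 13.8 with 50% coverage and -3.88 without readthrough genes. A distance of 500 bp gave 77 regions met in neither, and 2000 bp gave 806 regions and 216 met in neither. Coverage of 50% gave 27.2% met in both, 253 in neither, and differences of -0.86 points and 1.98 within bins from ends without a neighbour. Apart from list length, which changes peak number by construction, the cause was not tested. When single libraries were left out, there were 497 to 631 regions, 40.4% to 64.6% met (in the remaining library where a vitamin C library was left out), 149 to 245 in neither, differences of -7.97 to -3.97 points and -5.50 to -1.57 within bins, summits in the span of -0.41 to 1.37 points, and divergent minus convergent regions of -0.96 to 2.88 points. With replicate number as a block the log2 ratio of touched places was -1.10 and the width difference -497.5 bp, which changed no direction. Replicate 1 minus replicate 2, taken over the 3213 places, correlated at -0.0386 across conditions, so the numbers are not read as pairs. Without read counts, the peak lists cannot show signal below the authors' threshold, so a region not met is not shown to be closed.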
